A study of Homo sapiens with 16 samples.

Results

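The 40 genes described here encode proteins of the neuronal cytoskeleton, cell adhesion and synapse, and were taken by symbol from a list of 40 names among the 25728 gene symbols of the count table. The list held 10 microtubule genes, 6 neurofilament and growth cone genes, 8 adhesion and surface genes, 11 synaptic vesicle and SNARE genes, 3 ELAVL RNA-binding genes and 2 neuronal enzyme genes. All 40 were in the table, and all 40 passed the filter on low counts, which kept 11863 genes. RNA was sequenced from Kelly and LAN-1, established human neuroblastoma lines with amplified MYCN, grown for 2 or 5 days with 2 uM GSK126 or with DMSO, the solvent control. The 8 groups were therefore Kelly with DMSO at day 2 and day 5, Kelly with GSK126 at day 2 and day 5, and the same 4 for LAN-1, with 2 libraries each and 16 in all. No genetic change is named that separates the groups of a line. Each line is 1 established culture, and the labels do not say whether duplicates were separate cultures, so p-values here speak only of how these libraries vary, which may be technical.

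Neuroblastoma arises from sympathetic precursors of the neural crest, and its cells keep part of a neuronal program. Microtubules and neurofilaments give neurites their shape and transport tracks, adhesion molecules such as L1CAM guide and bundle axons, and SNARE proteins with synaptotagmins release the content of vesicles. GSK126 inhibits EZH2, the catalytic subunit of the Polycomb complex PRC2, which places the repressive mark H3K27me3 on developmental genes. The question of the design is how these genes respond to the inhibitor in each line, and where the lines differ in direction.

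The Kelly libraries held 1102922 to 1666190 counts each, and the LAN-1 libraries 912095 to 1597429. A gene with 0 counts in a library could have held up to 3, which is 1.82 to 3.31 CPM (counts per 1e6, with the library total scaled by TMM). The lowest count of a member in any library was 1. Such floors cover counting error only, since reads carried no molecular identifiers. The variance between duplicates was 1.11 to 2.04 times that of counting alone. The widest pair was GSK126 at day 5 in LAN-1 (2.04), where replicate 2 is the smallest library of all, and next for Kelly with DMSO at day 2 (1.84). The duplicates of these groups differed with the GC content of genes more than the other pairs did (correlations across genes of -0.31 and -0.29, a description only). The 10 sympathetic neuroblast markers were all counted in Kelly. In LAN-1 DBH and TH, the enzymes of noradrenaline and dopa synthesis, were near 0, with 25 and 13 counts over the 8 libraries. The Schwann cell and glial markers S100B, FABP7 and CDH19 had 0 counts in all 16 libraries.

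Without the inhibitor, most of the 40 genes were more abundant in Kelly than in LAN-1. Members held 0.959 to 1.05% of all counts in the DMSO libraries of Kelly and 0.508 to 0.573% in those of LAN-1. In DMSO, 29 members were higher in Kelly, 5 were lower and 6 were not called (edgeR quasi-likelihood test, adjusted p under 0.05). Over all genes 67.7% were called in this comparison, 34.2% higher in Kelly and 33.5% lower. All 6 neurofilament and growth cone genes and all 8 adhesion genes were on the Kelly side, the former by 1.33 to 7.53 and the latter by 0.35 to 4.42 on the log2 scale. In bulk samples, fewer cells of a type and less RNA per cell cannot be told apart.

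The largest gap was in NEFH, the heavy neurofilament subunit, at 762 ± 22.3 CPM in Kelly with DMSO at day 5 and 6.00 ± 1.36 CPM in LAN-1 (log2 difference over both days 7.53 ± 0.13, edgeR adjusted p = 1.21e-85, n = 4 per line). It was followed by STMN2, a stathmin that binds tubulin in growing axons (6.35 ± 0.13, 4.24e-78), and CNTNAP2, a neurexin-family protein of axon domains (4.42 ± 0.09, 1.67e-76). A further 5 genes ran the other way. ELAVL4, an RNA-binding protein of neurons, was lower in Kelly (-1.07), as were SYN2, a synapsin (-0.98), SYT1, the calcium sensor of vesicle release (-0.81), STMN3 (-0.42) and MAP1B (-0.15). MAP1B, a microtubule-associated protein of growing axons, lost its call when any 1 of 4 libraries was left out (edgeR adjusted p up to 0.154).

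Levels compared between genes are given per transcript length as RPKM, over the 4 DMSO libraries of a line. In Kelly the order began with UCHL1, a ubiquitin hydrolase abundant in neurons (426 ± 49.4 RPKM), STMN2 (303 ± 61.2), TUBB3, the neuronal beta-tubulin (255 ± 39.0), and NEFH (212 ± 13.6). UCHL1 and TUBB3 also led in LAN-1, at 316 ± 46.5 and 256 ± 38.6 RPKM, followed by MAP1B (172 ± 11.1). STMN2 and NEFH stood there at 3.75 ± 1.87 and 1.18 ± 0.510 RPKM. Neighbours in these orders often overlapped. TUBB3 (198 to 286 RPKM) and NEFH (197 to 225) did so in Kelly, as did UCHL1 (257 to 355) and TUBB3 (210 to 295) in LAN-1. The lowest level in Kelly was that of SYN2 (6.71 ± 1.14 RPKM) and in LAN-1 that of SYT4 (0.895 ± 0.647), a synaptotagmin of dense-core vesicles.

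**Figure D1:**
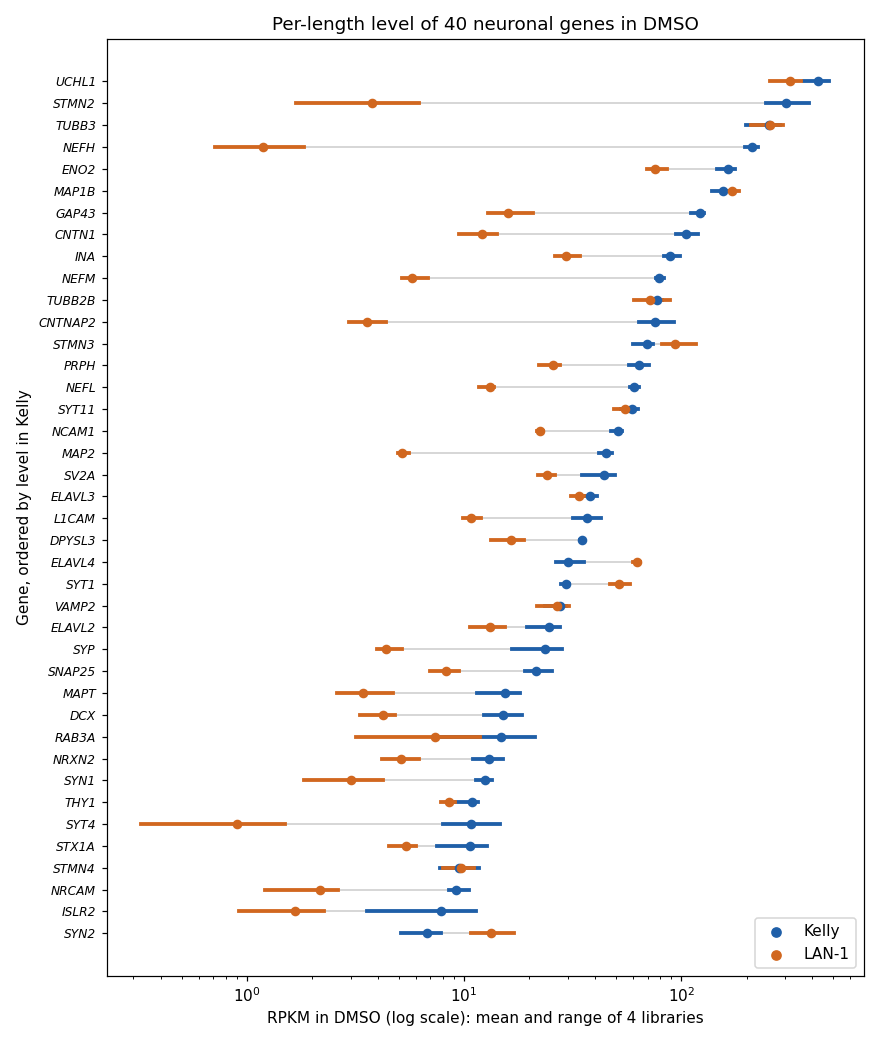
Level of each of the 40 genes in DMSO, in RPKM on a log axis; points are means and bars the range over the 4 DMSO libraries of Kelly (blue) or LAN-1 (orange). NEFH and STMN2 show the widest gap between the lines, while TUBB3 and VAMP2 lie on top of each other.

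At day 2 few members were called. In Kelly no member was called by edgeR, against 0.177% of all genes. Of the 40, 5 had an unadjusted p under 0.05, and DESeq2 also called 0. The count stayed at 0 without either library of the wider DMSO pair. The log2 fold changes ran from -0.40 to 0.48, with a median of -0.04 and 14 of 40 above 0 (14 to 21 over the fits tried). In LAN-1, PRPH was the single call, against 0.152% of all genes, and 28 of 40 changes were above 0 with a median of 0.11. SYT4 had the highest value in LAN-1 (1.53 ± 0.79, edgeR adjusted p = 0.801) on 2 counts in each DMSO library and 5 in each GSK126 library.

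By day 5 more members were called, in both lines. LAN-1 showed 6 of 40 members higher and 0 lower by edgeR. Over all genes 3.66% were called, 2.45% higher and 1.21% lower. A further 9 members had an unadjusted p under 0.05, and DESeq2 called 5 higher and 0 lower, with no adjusted p given for SYN1. The 6 were MAP1B, STMN2, NEFM, PRPH, L1CAM and SYN1, one or more from each of the 4 larger groups. Kelly showed 3 higher (STMN2, DCX and L1CAM) and 4 lower (TUBB3, NEFH, CNTNAP2 and UCHL1). Over all genes 4.9% were called there, 3.3% higher and 1.6% lower. The median log2 fold change of the 40 was 0.23 in LAN-1, with 30 above 0, and 0.01 in Kelly, with 21 above 0. Over all genes these medians were 0.00 and 0.01. Across the 23 fits tried, the number above 0 was 26 to 31 in LAN-1 and 19 to 23 in Kelly. In LAN-1, 21 members were above 0 in every fit, 6 below 0 in every fit and 13 had either sign, and in Kelly these counts were 18, 16 and 6.

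**Figure D2:**
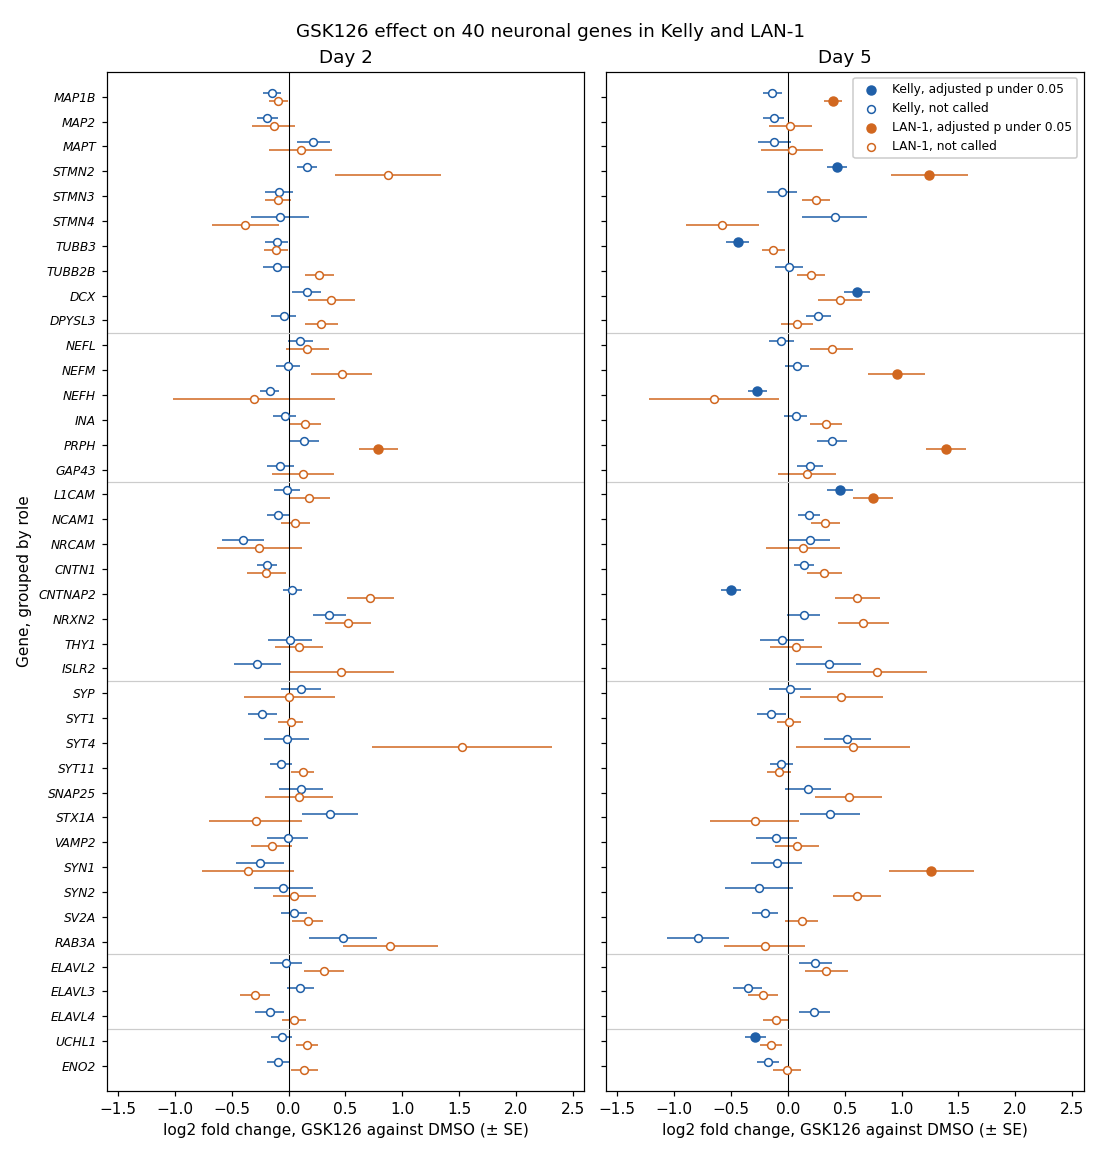
log2 fold change of GSK126 against DMSO ± SE for each of the 40 genes at day 2 and day 5, n = 2 libraries per group; filled points have an edgeR adjusted p under 0.05. At day 5 all 6 filled points of LAN-1 lie above 0, and those of Kelly lie on both sides, 3 above and 4 below.

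Members were also counted by whether the duplicates of the groups overlapped. In LAN-1 at day 5 both GSK126 libraries lay above both DMSO libraries for 19 members and below for 2, STX1A and UCHL1. The shares over all genes were 22.6% and 21.5%. In Kelly at day 5 the counts were 12 above and 13 below, against 24.3% and 22.5% of all genes. At day 2 they were 18 above and 3 below in LAN-1 (all genes 18.2% and 17.7%), and 6 above and 11 below in Kelly (19.4% and 17.3%).

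The calls rested on few libraries. Where the member count fell without a library, calls over all genes also became fewer in the fits named here. The fall was therefore not particular to the members. Leaving out LAN-1 GSK126 replicate 1 at day 5 instead kept the member count, while calls over all genes became more numerous. In Kelly at day 5 the count of 7 fell to 4 without DMSO replicate 1, 3 without DMSO replicate 2, and 4 without either GSK126 replicate. DESeq2 called 3, STMN2 and DCX higher and CNTNAP2 lower, and 163 of all genes, where edgeR called 581. In LAN-1 at day 5 the count of 6 became 3 without DMSO replicate 1, 1 without DMSO replicate 2 and 4 without GSK126 replicate 2. Of the 14 calls of members in the 4 comparisons, 3 held without any 1 of the 16 libraries, namely PRPH in LAN-1 and DCX and CNTNAP2 in Kelly, all at day 5.

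PRPH encodes peripherin, the intermediate filament of peripheral and sympathetic neurons, and had the largest estimate of the 40 in LAN-1 at day 5. It lies on chromosome 12:49688930-49692469 of GRCh37, plus strand. At day 2 it stood at 49.3 and 49.6 CPM in the DMSO libraries of LAN-1 and at 93.8 and 77.4 CPM in those with GSK126. At day 5 the values were 39.7 and 45.4 CPM with DMSO and 92.3 and 137 CPM with GSK126. Both inhibitor libraries lay above both control libraries on each day. The log2 fold change was 0.79 ± 0.17 at day 2 (edgeR adjusted p = 0.0103) and 1.39 ± 0.18 at day 5 (1.82e-09). The day 2 call was lost without either DMSO library or without GSK126 replicate 1 (adjusted p up to 0.762), while at day 5 the change was 1.12 ± 0.20 without GSK126 replicate 2 (3.45e-05).

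In Kelly PRPH had the higher control level and the smaller estimate, from 104 and 107 CPM to 145 and 131 CPM at day 5 (0.39 ± 0.14, edgeR adjusted p = 0.0818). There too both GSK126 libraries were above both DMSO libraries. The effect in Kelly minus that in LAN-1 was -1.0 ± 0.22 (adjusted p = 0.00316), and 1.85% of all genes were called in this test. That difference was not called without LAN-1 DMSO replicate 1 (0.0851) or LAN-1 GSK126 replicate 2 (0.120). With a GC correction the line difference was smaller, at -0.71 ± 0.21 (edgeR adjusted p = 0.0472). The LAN-1 effect at day 5 was then 1.18 ± 0.16 (1.50e-08). An antisense gene, TROAP-AS1, shares 1872 exon bases with PRPH. The strand setting of the counting is not given in the sources used here, so reads from either strand cannot be told apart.

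The bases just before the PRPH start are shown because this gene rose on both days in LAN-1, and those of SYN1 because its stretch holds the recognition core of the neuronal repressor REST. Each is the 250 bases upstream of a RefSeq start (promoter table of build GRCh38.p14, matched base for base to GRCh37), written 5′ to 3′ on the strand of the gene. PRPH is chr12:49688680-49688929, plus strand, with the TATA box in capitals, and SYN1 is chrX:47479257-47479506, minus strand, with the REST core in capitals.
PRPH: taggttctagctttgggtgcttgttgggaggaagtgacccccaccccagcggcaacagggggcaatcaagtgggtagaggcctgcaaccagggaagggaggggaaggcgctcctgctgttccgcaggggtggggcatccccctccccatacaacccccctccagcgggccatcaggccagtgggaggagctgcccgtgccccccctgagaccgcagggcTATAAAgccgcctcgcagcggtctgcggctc
SYN1: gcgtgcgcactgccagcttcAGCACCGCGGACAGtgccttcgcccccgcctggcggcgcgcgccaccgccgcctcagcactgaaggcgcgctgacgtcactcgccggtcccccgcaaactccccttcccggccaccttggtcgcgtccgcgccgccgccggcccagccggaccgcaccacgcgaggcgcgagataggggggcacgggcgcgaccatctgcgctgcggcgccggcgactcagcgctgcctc

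The motif TATAAA lies at bases -31 to -26 of the PRPH window, which holds 10 CpG pairs, against a median of 11 over all promoters in the table. The SYN1 window holds 41 CpG pairs and the REST core, AGCACC and GGACAG with 2 bases of any kind between them, at -230 to -217. Of the 40 members, 29 had an entry in the table, with 52 entries in all. Searched on both strands, TATAAA was in 6 of the 52 windows (of DCX, ELAVL2, MAP1B, PRPH and UCHL1), a share near the 10.72% of all 35116 promoters. The REST core was found in SYN1 alone, and in 0.05126% of all promoters. The E-box CACGTG bound by MYC proteins was in 0 of the 52 windows and in 6.345% of all. These matches describe letters, and binding was not measured.

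Of the other neurofilament genes, NEFM was called in LAN-1 and NEFH in Kelly. NEFM, the medium neurofilament subunit on chromosome 8:24771271-24776611, rose in LAN-1 from 22.3 and 17.6 CPM with DMSO to 44.8 and 30.9 CPM with GSK126 at day 5 (0.96 ± 0.25, edgeR adjusted p = 0.0109). The groups did not overlap. The call was lost without either DMSO library or without GSK126 replicate 1 (up to 0.324), and held without GSK126 replicate 2 (0.0075). In Kelly NEFM was far more abundant and changed by 0.08 ± 0.10, with 263 and 273 CPM against 295 and 272 CPM. The line difference of -0.88 ± 0.27 did not pass (0.0648).

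NEFH, on chromosome 22:29876207-29887379, fell in Kelly at day 5 from 747 and 778 CPM to 640.2 and 626 CPM (-0.27 ± 0.09, edgeR adjusted p = 0.0464). The groups did not overlap, but the call was lost without any 1 of 7 libraries, among them all 4 of the comparison (up to 0.319). In LAN-1 it had 10 and 6 counts with DMSO and 8 and 1 with GSK126, too few to show a change (-0.65 ± 0.57, 0.628). The light subunit NEFL, internexin (INA) and GAP43, a growth cone protein, were not called in either line, with INA at 0.33 ± 0.14 and NEFL at 0.38 ± 0.19 in LAN-1 at day 5. Members of this group that were not called had estimates of -0.06 to 0.39 in Kelly, and of -0.65 to 0.38 in LAN-1.

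Among the microtubule genes, STMN2 rose in both lines at day 5. On chromosome 8:80523352-80578393, it went in Kelly from 734 and 594 CPM to 892 and 895 CPM (0.43 ± 0.09, edgeR adjusted p = 1.79e-04), without overlap. The call was lost without DMSO replicate 2, the lower control (0.186). LAN-1 held 17 and 8 counts with DMSO and 34 and 19 with GSK126, or 11.8 and 6.72 against 23.8 and 20.9 CPM (1.24 ± 0.34, 0.0185). That call was lost without DMSO replicate 2 (0.262) or GSK126 replicate 1 (0.119), and was at 0.0493 without GSK126 replicate 2. STMN2 also rose between days in Kelly with DMSO alone (0.44 ± 0.09, 0.00249), where 0.438% of all genes were called, 0.236% as higher at day 5. That rise was lost without DMSO day 2 replicate 2 or day 5 replicate 1 (up to 0.709) and in DESeq2 (0.0683), with an estimate as low as 0.27. The line difference of the GSK126 effect was -0.81 ± 0.35 (0.283).

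DCX, or doublecortin, which bundles microtubules in migrating neurons (chromosome X:110537007-110655657, minus strand), rose in Kelly from 168 and 151 CPM to 247 and 238 CPM (0.61 ± 0.11, edgeR adjusted p = 4.10e-05). The groups were well apart, and the call held whichever library was left out (up to 0.0235). In LAN-1 the change had the same sign, from 41.8 and 43.7 CPM to 57.4 and 60.6 CPM, but did not pass (0.46 ± 0.19, 0.187). The difference between the lines was 0.15 ± 0.23 (0.837).

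MAP1B rose in LAN-1, and its effect differed between the lines. It lies on chromosome 5:71403061-71505392 and was among the most abundant members in both. In LAN-1 at day 5 the DMSO libraries held 2185 and 1924 CPM and those with GSK126 2886 and 2518 CPM (0.40 ± 0.08, edgeR adjusted p = 5.23e-04). In Kelly the values were 1841 and 2014 CPM with DMSO and 1673 and 1833 CPM with GSK126 (-0.14 ± 0.08, 0.414). Neither line showed overlap, higher in LAN-1 and lower in Kelly. The difference of the effects was -0.53 ± 0.11 (0.00176). Without LAN-1 DMSO replicate 2, the lower of that pair, neither the rise (0.119) nor the difference (0.0642) passed. Without LAN-1 GSK126 replicate 2 the difference was -0.63 ± 0.11 (1.22e-05). In LAN-1 the effect at day 2 was -0.09 ± 0.08, and day 5 minus day 2 was 0.49 ± 0.11 (0.0149), a test that called 0.539% of all genes. That call was lost without DMSO replicate 2 of either day or GSK126 replicate 1 of day 2 (up to 0.272).

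TUBB3, on chromosome 16:89987800-90005169, fell in Kelly at day 5, from 446 and 466 CPM to 362 and 312 CPM (-0.44 ± 0.10, edgeR adjusted p = 0.00278). The call was lost without DMSO replicate 2 (0.0606) or GSK126 replicate 2 (0.152), and in DESeq2 (0.0696). In LAN-1 the libraries overlapped, at 476 and 503 CPM with DMSO and 419 and 483 CPM with GSK126 (-0.13 ± 0.10, 0.581). The line difference was -0.31 ± 0.15 (0.322). The other microtubule genes, which are MAP2, MAPT (tau), STMN3, STMN4, TUBB2B and DPYSL3, were called in neither line at day 5. Uncalled estimates of the group were -0.14 to 0.41 in Kelly, and -0.58 to 0.46 in LAN-1. DPYSL3, a collapsin response mediator, had 0.27 ± 0.11 in Kelly (0.167). TUBB2B has a near-identical copy, TUBB2A, so its counts are uncertain.

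**Figure D3:**
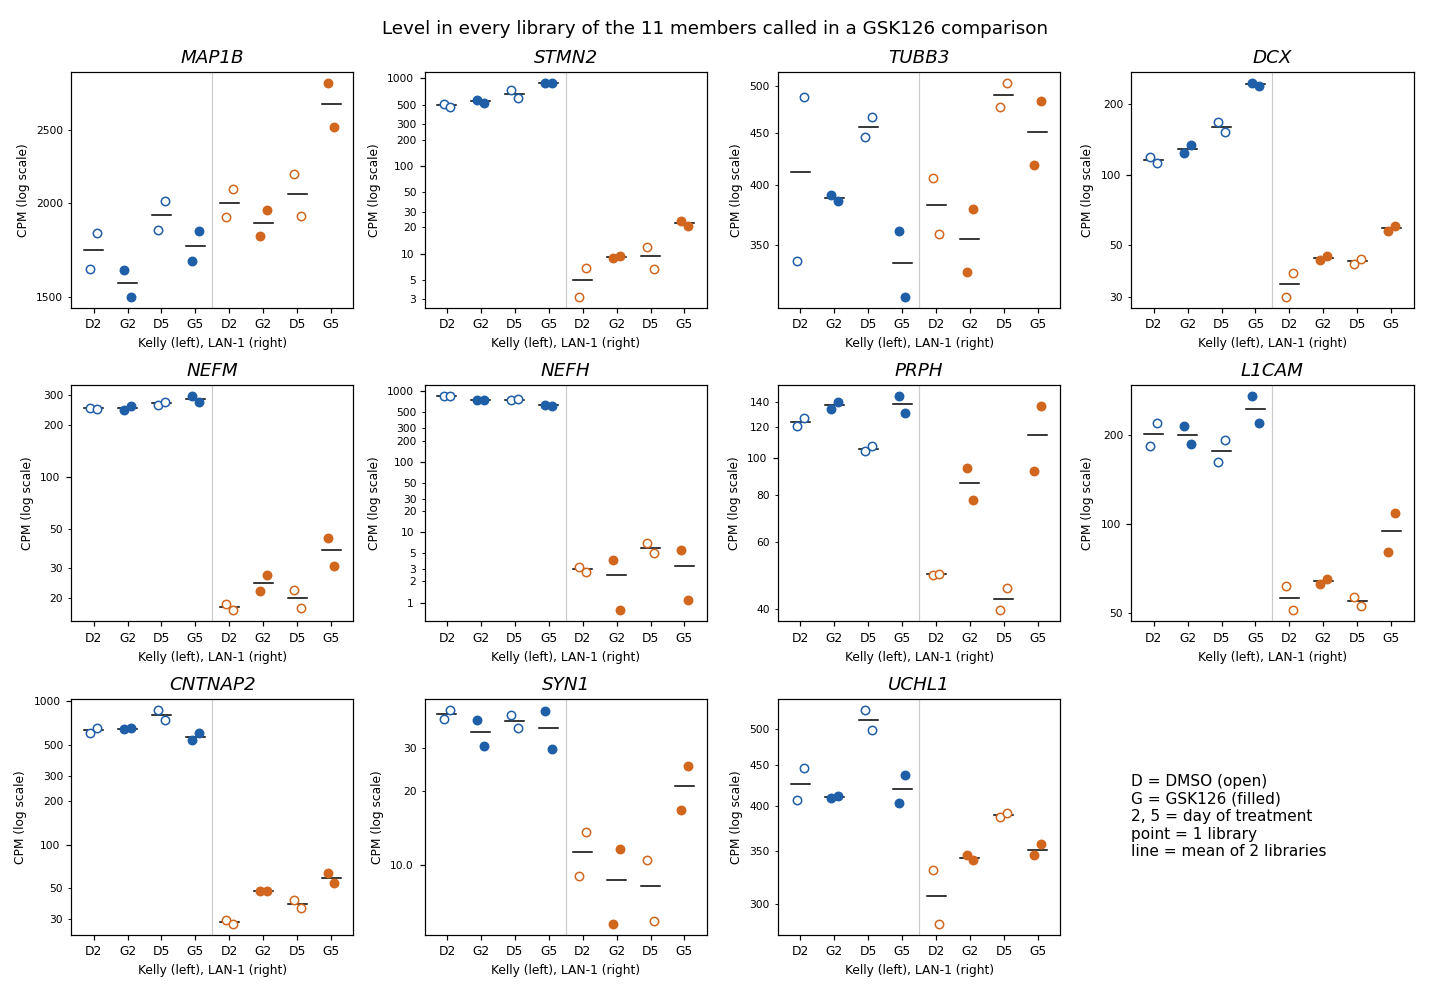
Level in CPM (log axis) of the 11 members called in a GSK126 comparison, in all 16 libraries; each point is 1 library, open for DMSO and filled for GSK126, lines are means of 2, and Kelly is left and LAN-1 right. PRPH in LAN-1 lies higher with GSK126 on both days, and CNTNAP2 at day 5 lies lower in Kelly and higher in LAN-1.

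Of the adhesion genes, L1CAM rose in both lines at day 5. L1CAM, an immunoglobulin-family molecule of axon growth on chromosome X:153126969-153151627, minus strand, went in LAN-1 from 56.4 and 52.9 CPM to 80.4 and 109 CPM (0.75 ± 0.17, edgeR adjusted p = 0.00353). The call was lost without either DMSO library or without GSK126 replicate 2 (up to 0.179). In Kelly the values were 162 and 193 CPM with DMSO and 272 and 221 CPM with GSK126 (0.46 ± 0.12, 0.00541). That call was lost without DMSO replicate 1 (0.206) or GSK126 replicate 1 (0.296), and in DESeq2 (0.189). In both lines the GSK126 libraries were above those with DMSO, and the lines differed by -0.29 ± 0.21 (0.590).

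CNTNAP2 fell in Kelly, and of the 40 it had the smallest adjusted p for a difference between the lines. The gene covers chromosome 7:145813094-148118090. In Kelly at day 5 it fell from 877 and 737 CPM to 539 and 597 CPM (-0.50 ± 0.09, edgeR adjusted p = 7.61e-06), and the call held without any 1 library (up to 0.0186). In LAN-1 the values were 41.1 and 36.1 CPM with DMSO and 63.0 and 54.0 CPM with GSK126 (0.61 ± 0.20, 0.0577), which missed the threshold although the libraries did not overlap. LAN-1 at day 2 gave 29.5 and 27.8 against 47.3 and 47.2 CPM (0.72 ± 0.21, 0.219), again without overlap. Kelly minus LAN-1 at day 5 was -1.11 ± 0.21 (3.17e-04), and this call held without any 1 of the 16 libraries (up to 0.0194) and in DESeq2.

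The CNTNAP2 effect in Kelly also differed between days. At day 2 the values were 606 and 656 CPM with DMSO and 643 and 650.2 CPM with GSK126 (0.03 ± 0.09), and day 5 minus day 2 of the effect was -0.54 ± 0.12 (edgeR adjusted p = 0.0105), where 0.379% of all genes were called. The Kelly control itself rose between the days (0.35 ± 0.09, 0.0233). With GSK126 the level at day 5 (568 ± 41.5 CPM) lay below that at day 2 (647 ± 4.77 CPM), as the control went up (631 ± 35.7 to 807 ± 99.4 CPM). The change of the effect between days was lost without any 1 of 5 Kelly libraries, which were replicate 1 of all 4 groups and GSK126 day 2 replicate 2, and in DESeq2 (0.181). Its highest adjusted p was 0.360, without DMSO day 5 replicate 1, the highest library. The rise of the control was lost without that library (0.823) or DMSO day 2 replicate 1, and in DESeq2 (0.196).

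The remaining adhesion genes had positive estimates in LAN-1 at day 5 and none was called. NRXN2, a presynaptic neurexin, had 0.66 ± 0.23 (edgeR adjusted p = 0.0823), with 27.9 and 32.8 CPM against 51.8 and 41.9 CPM. NCAM1, the neural cell adhesion molecule, had 0.33 ± 0.13 (0.130), and contactin CNTN1 had 0.32 ± 0.16 (0.280). NRCAM, THY1 and ISLR2 lay between 0.07 and 0.78. In Kelly the uncalled members of the group ran from -0.05 to 0.36. ISLR2 fell between days in Kelly with DMSO (-1.29 ± 0.25, 6.99e-04), a call lost without DMSO day 5 replicate 1 (0.166).

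Of the synaptic vesicle and SNARE genes, SYN1 was the single call. Synapsin 1 tethers vesicles to the cytoskeleton (chromosome X:47431300-47479256, minus strand). In LAN-1 it had 15 and 7 counts with DMSO at day 5 and 24 and 23 with GSK126, or 10.4 and 5.88 against 16.8 and 25.3 CPM (1.26 ± 0.37, edgeR adjusted p = 0.0344). The groups did not overlap, but the call was lost without either DMSO library or GSK126 replicate 2 (up to 0.360) and with a GC correction (0.0869). At day 2 the direction was opposite (-0.36 ± 0.40, 0.952), and in Kelly at day 5 the libraries overlapped at 41.1 and 36.5 against 42.6 and 29.8 CPM (-0.10 ± 0.22, 0.894). The line difference of -1.36 ± 0.44 did not pass (0.0860).

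The other 10 vesicle genes were not called by edgeR in either line at day 5, nor was SYN1 in Kelly. There 2 of the 11, SYT4 and RAB3A, had an unadjusted p under 0.05, and DESeq2 called none of them. Estimates in Kelly ran from -0.79 to 0.52, with RAB3A, a small GTPase of vesicle docking, the lowest. It had 38 and 52 counts with DMSO and 21 and 23 with GSK126 (-0.79 ± 0.28, edgeR adjusted p = 0.0795). Uncalled estimates in LAN-1 ran from -0.29 for the SNARE gene STX1A to 0.61 for SYN2 (0.61 ± 0.21, 0.0915). SYP (synaptophysin), SNAP25, VAMP2, SV2A, SYT1, SYT4 and SYT11 lay between. The ELAVL genes were not called in either line. ELAVL3 had -0.36 ± 0.12 in Kelly (0.0790) and -0.22 ± 0.13 in LAN-1 (0.394).

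Of the neuronal enzymes, UCHL1 fell in Kelly at day 5. It lies on chromosome 4:41258430-41270472 and went from 529 and 498 CPM to 403 and 437 CPM (-0.29 ± 0.09, edgeR adjusted p = 0.0428), without overlap. The call was lost without any 1 of the 4 libraries compared (up to 0.348) and in DESeq2 (0.180). In LAN-1 the values were 387 and 392 CPM with DMSO and 346 and 357 CPM with GSK126 (-0.15 ± 0.10, 0.458), also without overlap. ENO2, the neuronal enolase, had -0.18 in Kelly (0.362) and -0.01 in LAN-1.

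Set side by side at day 5, 18 members had positive estimates in both lines, 7 negative in both, 12 were negative in Kelly and positive in LAN-1, and 3 the reverse. Over all genes, with estimates of 0 left out, these counts were 3224, 3070, 2593 and 2749. The sign was the same in both lines for 62.5% of the members and 53.1% of all genes. Negative in Kelly and positive in LAN-1 were 30% of the members and 21.9% of all genes. The Pearson correlation of the 2 sets of estimates was 0.36 over the 40 members and 0.14 over all 11863 genes. It is a description across genes, which are not independent replicates and share libraries. The difference between lines was called for 3 of 40 members, MAP1B, PRPH and CNTNAP2, all lower in Kelly, against 0.919% of all genes in that direction. At day 2 no member was called by edgeR or DESeq2 in this test (all genes 0.00843%), and 4 had an unadjusted p under 0.05.

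**Figure D4:**
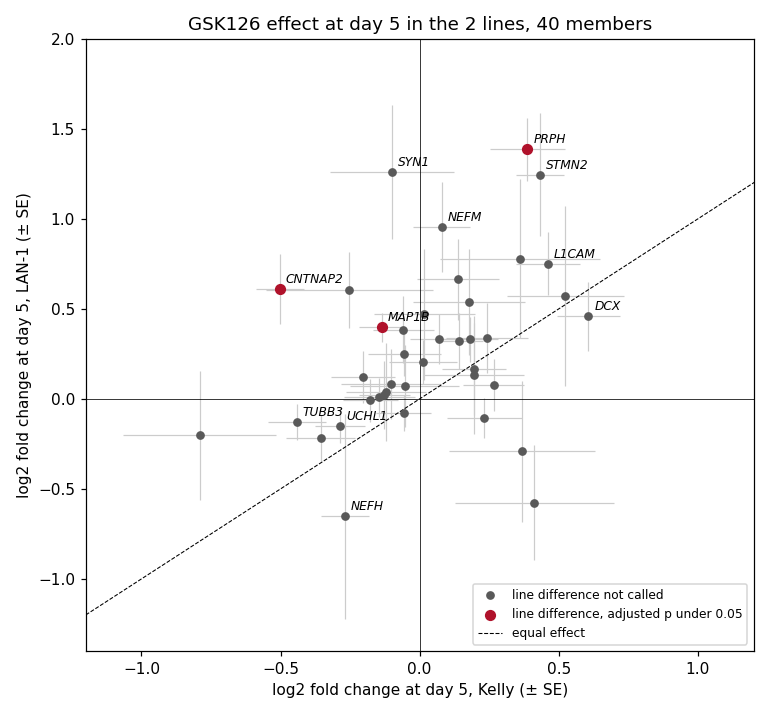
log2 fold change of GSK126 against DMSO at day 5 in Kelly (x axis) and LAN-1 (y axis) for the 40 genes, with SE bars and the line of equal effect; red points have a line difference with an edgeR adjusted p under 0.05. The red points are CNTNAP2, MAP1B and PRPH, all above the line, at differences of -1.11, -0.53 and -1.0 for Kelly minus LAN-1.

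Averaged over both lines and days, 6 members were higher with GSK126 and 2 lower. Over all genes 6.47% were called, 4.32% higher and 2.16% lower. These averages use the same libraries as the comparisons above. PRPH (0.67 ± 0.08, edgeR adjusted p = 1.28e-11), STMN2 (0.68 ± 0.15, 8.81e-04), NRXN2 (0.42 ± 0.09, 7.62e-04), DCX (0.40 ± 0.08, 3.12e-04), NEFM (0.37 ± 0.10, 0.00852) and L1CAM (0.34 ± 0.07, 6.98e-04) were higher. Of these, the call of NEFM was lost without LAN-1 GSK126 day 2 replicate 2 or day 5 replicate 1 (up to 0.113), and the other 5 held whichever library was left out. TUBB3 (-0.20 ± 0.05, 0.00852) and ELAVL3 (-0.19 ± 0.06, 0.0431) were lower. TUBB3 was lost without Kelly DMSO day 2 replicate 2 (0.127) and ELAVL3 without any 1 of 11 libraries (up to 0.214), and DESeq2 called neither.

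Further genes of the same pathways were counted from 4 lists, of which 65 of 73 members were tested. In Kelly at day 5, 10 were higher and 3 lower, and in LAN-1 2 were higher and 0 lower by edgeR. These are 20% and 3.08% of the 65, against 4.9% and 3.66% of all genes, so that the LAN-1 share was near that of all genes. In LAN-1 these were SNAP91, a clathrin adaptor of nerve terminals (1.44 ± 0.36, edgeR adjusted p = 0.0072), and SYT2, a synaptotagmin (1.07 ± 0.32, 0.0390), and the median over the 65 was 0.26. In Kelly the median was 0.03. Among the 10 higher there were TUBB4A, a beta-tubulin (4.08 ± 0.31), SYT13 (1.71 ± 0.35), ASTN1, a migration protein (1.36 ± 0.34), SNAP91 (0.94 ± 0.19), the kinesin KIF21B (0.69 ± 0.16) and the adhesion gene CADM1 (0.61 ± 0.13). Among the 3 lower were SRRM4, a neuronal splicing factor (-0.90 ± 0.22), and the kinesin KIF1A (-0.30 ± 0.09).

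Markers of other states moved beside these genes in Kelly at day 5. The 10 sympathetic markers summed to 7154 to 7331 CPM with DMSO and 4948 to 5207 CPM with GSK126, with 0 higher and 6 lower. The mesenchymal markers summed to 421 to 443 CPM and 860.1 to 860.7 CPM, with 6 of 9 tested higher and 0 lower, and COL1A2 at 0 in every Kelly library. In LAN-1 at day 5 the sympathetic sum was 3051 to 3177 CPM with DMSO and 2951 to 3345 CPM with GSK126 (2 higher, 0 lower), and the mesenchymal sum 1145 to 1270.2 CPM and 1387 to 1548 CPM (2 higher, 0 lower). The Schwann and glial markers summed to 55.3 to 59.0 CPM with DMSO and 71.8 to 75.4 CPM with GSK126 in Kelly, mostly PMP22, and to 3.36 to 4.18 and 8.39 to 9.92 CPM in LAN-1. Over all genes at day 5, 3.3% were called higher and 1.6% lower in Kelly, and 2.45% and 1.21% in LAN-1. The part of these marker shifts in the results of the 40 genes was not tested.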

How the data were processed

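The authors deposited raw read counts per gene symbol for each library. The submitters' processing notes name FastQC, TopHat2, featureCounts and the build GRCh37 (hg19). Versions, annotation, strand setting and the rule for multi-mapping reads are not given in the sources used here. Of the members, 9 share 8 to 613 exon bases with an opposite-strand gene of the table (MAPT, TUBB2B, INA, NCAM1, THY1, SYP, SYN1, SYN2 and RAB3A), and reads there cannot be told apart. Further members besides PRPH share exon bases with opposite-strand genes outside the table. Among them are NEFM (960 bases), NEFL (781), L1CAM (358), NEFH (343) and UCHL1 (135), so the same limit applies to them. Some members share exon bases with same-strand genes outside the table, where no strand setting could separate the reads. Among these are TUBB3 (1584 bases), SYN1 (928), L1CAM (439), CNTNAP2 (414) and VAMP2 (403).

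Groups were taken from the labels. The analysis used R 4.3.3 and edgeR 4.0.16. After filterByExpr at a minimum count of 10 and TMM scaling, 11863 genes were fitted together by quasi-likelihood with robust dispersions, 8 group means and 8 residual degrees of freedom (common biological variation 5.31%). Benjamini-Hochberg adjustment covered every gene fitted, and calls needed an adjusted p under 0.05. Adjusted p-values with no tool named are those of edgeR. Log2 fold changes are given ± SE and levels as mean ± SD of 2 libraries. RPKM uses the length of the MANE Select transcript, and positions come from GENCODE 44 lifted to GRCh37. The script was tested on simulated data. Alternatives were RLE size factors, no filter, DESeq2 1.42.0, a replicate block, the libraries of a line alone, leaving out each library, and a GC offset chosen after seeing the data.

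The members and lists were chosen with earlier results of these data known. Values in every library are given for members called in a GSK126 comparison or in the difference between lines. Of the 4 further lists, up to 3 genes each called at day 5 are named, by smallest adjusted p.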

Additional observations from a re-analysis of the deposited data

Results flagged for a closer look

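Differences of the GSK126 effect between lines or days passed a test of the difference itself (edgeR interaction contrast) for 5 results of 3 genes. At day 5, Kelly minus LAN-1 was -1.11 for CNTNAP2, -1.0 for PRPH and -0.53 for MAP1B, on the log2 scale. In Kelly, day 5 minus day 2 was -0.54 for CNTNAP2. In LAN-1 it was 0.49 for MAP1B.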

How the results depend on the processing

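The 40 called results of named members were refitted under every alternative. Of these 857 values, 778 kept their direction and their side of the threshold, 79 kept the direction but lost the call, and 0 reversed, while estimates that were not called could change sign between fits. Of 260 alternative counts of members called, 226 were within 1.5 times the value reported. A count of 0 in both fits passed this rule. Many fits, here and among the 857 values, left out a library outside the comparison. These shares therefore say little of how stable the calls were. DESeq2 called fewer of all genes than edgeR did in each of the following comparisons. It called 3 members at day 5 of Kelly, 0 at day 2 of LAN-1, 0 for time in Kelly with DMSO (3 by edgeR), and 0 for the change of the Kelly effect between days (1 by edgeR). The GC offset gave 6 and 2 for these last counts and 2 for time in LAN-1 with DMSO, where edgeR without it called 0, with 11 at an unadjusted p under 0.05, and 1 with no filter. Over all genes, the offset gave 102 calls for time in Kelly with DMSO (52 without it) and 67 for the change of the Kelly effect (45). It gave 77 for time in LAN-1 with DMSO (52). With the GC offset the calls at day 5 were 5 higher and 4 lower in Kelly and 7 higher and 1 lower in LAN-1. Calls over all genes at day 5 were then 771 in Kelly (581 without it) and 348 in LAN-1 (434 without it). The cause of these shifts was not tested.

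Leaving out 1 library at a time, a lone sample being assumed to vary like the other groups, gave 3 to 9 calls for day 5 of Kelly, 0 to 1 for day 2 of LAN-1 and 1 to 7 for its day 5. The line difference at day 5 gave 2 to 5, the mean effect 6 to 9 and the DMSO line comparison 32 to 35. Time gave 0 to 5 in Kelly and 0 to 2 in LAN-1, and the change of the effect between days 0 to 2 in each line. Calls over all genes also varied between these leave-one-out fits, so the ranges are not particular to the members. Same-numbered libraries showed no large common deviation across genes. Correlations were -0.0876 to 0.103 over 28 pairs of groups, and -0.0364 to 0.0467 for the 4 pairs of DMSO and GSK126. Whether such libraries shared a culture or day cannot be told from these values. The replicate block gave 6 calls for day 5 of Kelly (NEFH was lost), 6 for day 5 of LAN-1, 1 for its day 2 and 3 for the line difference. Low counts limit STMN2, NEFH, SYT4 and SYN1 in LAN-1.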
